A study of Mus musculus with 13 samples.

Results

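The genes described here are 10 genes through which heart muscle stores calcium in the sarcoplasmic reticulum, releases it and takes it back up. They were chosen by name as Ryr2, Itpr2, Trdn, Asph, Hrc, Casq2, Tmem38a, Atp2a2, Pln and Slc8a1, and they are 10 of the 29125 genes with a named transcript in the deposited tables. RNA was sequenced in 13 libraries of wild-type mice of the FvB strain, all prepared after removal of the atria. Of whole ventricles there were 5 libraries, 1 per stage, from embryonic day 17 (E17) through the days after birth PN1, PN10 and PN28 to PN90. Isolated cardiomyocytes, the contracting muscle cells, gave 2 neonatal libraries (labelled PN1-2 and PN1) and 1 each at PN30 and PN67. Cardiac fibroblasts, the cells that make connective tissue, gave 2 neonatal libraries (titled PN1-3 and PN1-2, with an age entry of PN1 for both) and 1 each at PN28 and PN60. Neonatal cardiomyocytes were isolated by preplating, in which fibroblasts stick to a dish first. PN30 and PN67 cardiomyocytes came from Langendorff perfusion, which passes enzymes through the coronary vessels, so age and isolation method cannot be told apart in cardiomyocytes. Fibroblasts of each age were preplated after enzymatic digestion. For ventricles ribosomal RNA was depleted and a ScriptSeq kit used, whereas cells went through TruSeq, so kit and tissue cannot be told apart when ventricles and cells are set side by side. The labels do not say whether a cell type's 2 neonatal libraries had their own animals or cultures. The p-values therefore rest on the spread among these samples alone, and that spread may be technical.

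At each heartbeat, calcium entering from outside opens the ryanodine receptor, a channel in the membrane of the sarcoplasmic reticulum, and the stored calcium that flows out starts contraction. A pump then returns calcium to the store while an exchanger in the plasma membrane carries the rest out of the cell. Inside the store, calcium is held by a binding protein that is tied to the release channel by small membrane proteins, and the set of proteins is built up as heart muscle matures around birth.

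The 250 bases before the start of transcription were available for 7 of the 10 genes (RefSeq, build GRCm38.p6). The promoters of Pln, Casq2, Tmem38a and Itpr2 are shown as examples. The first 3 of these genes rose in cardiomyocytes and Itpr2 did not pass the test. Capitals mark matches on either strand. The letters searched were CATTCC, which is the core of sites for TEAD factors, and AGATAA, which GATA factors can bind. TATAAA, the letters of a basal promoter element, and the motifs named MEF2 and CArG were searched as well. Matches were taken at any position of the window, and no match overlapped another. The windows lie at chr10:53337436-53337685 (plus strand), chr3:102086165-102086414 (plus strand), chr8:72571573-72571822 (plus strand) and chr6:146502224-146502473 (minus strand), in that order.
Pln: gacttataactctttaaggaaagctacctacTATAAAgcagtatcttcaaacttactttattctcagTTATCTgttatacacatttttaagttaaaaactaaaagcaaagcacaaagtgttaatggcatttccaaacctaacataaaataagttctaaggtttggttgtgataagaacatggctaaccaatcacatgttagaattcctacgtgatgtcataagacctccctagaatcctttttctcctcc
Casq2: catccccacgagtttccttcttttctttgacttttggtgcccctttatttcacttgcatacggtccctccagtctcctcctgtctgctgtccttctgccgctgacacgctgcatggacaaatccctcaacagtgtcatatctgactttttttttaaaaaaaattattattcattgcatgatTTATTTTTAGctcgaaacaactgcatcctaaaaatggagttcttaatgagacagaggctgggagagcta
Tmem38a: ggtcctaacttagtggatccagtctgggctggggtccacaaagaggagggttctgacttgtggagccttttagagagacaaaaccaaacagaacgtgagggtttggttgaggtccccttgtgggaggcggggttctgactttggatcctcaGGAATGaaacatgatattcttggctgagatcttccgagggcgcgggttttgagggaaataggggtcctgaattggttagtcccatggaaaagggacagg
Itpr2: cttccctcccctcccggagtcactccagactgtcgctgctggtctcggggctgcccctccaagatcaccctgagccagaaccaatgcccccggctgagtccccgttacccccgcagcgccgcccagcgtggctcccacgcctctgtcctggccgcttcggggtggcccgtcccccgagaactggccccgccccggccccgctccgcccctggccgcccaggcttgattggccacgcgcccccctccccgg
Among the 7 promoters, CATTCC was found in 1 (Tmem38a), AGATAA in 2 (Pln and Slc8a1), TATAAA in 1 (Pln, -219 to -214 relative to the start), the MEF2 motif in 1 (Casq2, -69 to -60) and the CArG motif in 0. Of all 32841 promoter windows of this length, 12.6%, 9.99%, 12.4%, 2.92% and 1.47% held these motifs. The general E-box CANNTG, which is not in capitals, was found in 5 of the 7 windows and in 66.2% of all windows. The Itpr2 window held none of the 6 motifs. Of the windows not shown, those of Ryr2 and Hrc, which also rose in cardiomyocytes, held only the E-box. The window of Slc8a1, whose change there did not pass, held AGATAA and the E-box. The windows shown are therefore no contrast between genes that rose and genes that did not. A match of letters is a description of the window and not evidence of a bound factor.

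Values are FPKM (sequenced fragments divided by transcript length and by library size), summed over the transcripts of a gene of at least 200 nucleotides and rescaled between libraries, so levels of different genes can be compared per length. Fragment totals are not given in the tables. As a stand-in for depth, median coverage divided by FPKM was 21.8 to 25.1 in cardiomyocytes, 30.4 to 32.8 in fibroblasts and 19.5 to 25.0 in ventricles. For each gene the transcript with the highest mean FPKM over all 13 libraries was taken. For Casq2 and Slc8a1 this transcript reached 10 FPKM in ventricles only. The deposited confidence bounds of these transcripts had a median half-width of 1.54% of FPKM at levels of at least 10 FPKM. In 40 of these 68 cases they did not enclose the FPKM itself, so they are not used as errors. A transcript with too many fragments for Cufflinks to quantify is listed at 0 with the status HIDATA and is treated as without a value. For this reason Atp2a2 had no value in PN30 and PN67 cardiomyocytes or in PN28 and PN90 ventricles, and Pln had none in PN28 and PN90 ventricles. The 6 usable cardiomyocyte markers (of 8) summed to 10958 to 11968 FPKM in neonatal and 39631 to 40111 in later cardiomyocytes, and to 1079.6 to 1224 in neonatal and 24.0 to 32.1 in later fibroblasts. Endothelial markers, 6 of 6 with values, summed to 1036 to 1220.3 FPKM in neonatal and 274 to 285 in later cardiomyocytes, and to 439.9 to 511 and 275 to 313 in fibroblasts. Macrophage markers, 6 of 6 with values, summed to 75.8 to 98.1 FPKM in neonatal and 249 to 270.4 in later cardiomyocytes. Singly, 3 of them rose there, 1 fell and 2 were not called (limma, adjusted p below 0.05). Of all genes tested, 36.8% rose and 30.4% fell there. The 4 atrial markers summed to 937 to 3460.3 FPKM in neonatal and 124 to 196 in later cardiomyocytes, and the 4 usable erythroid markers (of 6) to 15714 to 20560.4 and 719.6 to 1099. In fibroblasts these erythroid markers summed to 74.0 to 162 FPKM in neonatal and 97.4 to 155 in later libraries. The 6 usable fibroblast markers (of 8) summed to 2033 to 2053 FPKM in neonatal and 1455 to 1609 in later fibroblasts. In cardiomyocytes they summed to 199 to 228 FPKM in neonatal and 181 to 207 in later libraries. No marker of the cardiomyocyte, atrial, fibroblast, endothelial, smooth muscle or macrophage lists with a value stood at 0.

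Most of the calcium release and uptake genes rose from neonatal to later cardiomyocytes, with Hrc, Pln and Tmem38a ahead, and most of them fell in fibroblasts over the same period. In cardiomyocytes 7 of the 9 genes with values rose and 0 fell, against 36.8% of all genes tested that rose and 30.4% that fell (limma, adjusted p below 0.05). Their median log2 change was 2.31, against 0.09 over 12145 genes, and this median of all genes was -0.19 without rescaling and -0.28 with mitochondrial genes removed. The split of all calls was 4475 up and 3690 down, and these other scalings turned it to 3369 up and 4893 down, and to 3008 up and 5253 down. In fibroblasts 6 of the 10 genes fell and 0 rose, against 21.3% of all genes that fell and 19.7% that rose. Their median log2 change was -0.90, against -0.03 over 12146 genes, which became -0.29 without rescaling and -0.30 with mitochondrial genes removed. All fibroblast calls were 2396 up and 2588 down, or 1480 up and 4660 down without rescaling and 1488 up and 4710 down with mitochondrial genes removed. The change with age differed between the cell types for 8 of the 9 genes that could be tested, each toward cardiomyocytes, against 32.2% of all genes in that direction. At the later stage 8 of 9 genes were higher in cardiomyocytes than in fibroblasts, against 38.5% of all genes. These directions were shared with the cardiomyocyte markers. In cardiomyocytes 6 of the 6 markers tested rose (median log2 change 2.096), and in fibroblasts 8 of 8 fell (median -5.23). The difference of the changes was toward cardiomyocytes for 6 of 6 markers, with a median of 6.73 against 3.57 for the calcium genes. In bulk RNA, fewer cells of a type and less RNA per cell cannot be told apart, and the parts of isolation method and of the marker changes above in these changes were not tested.

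**Figure D1:**
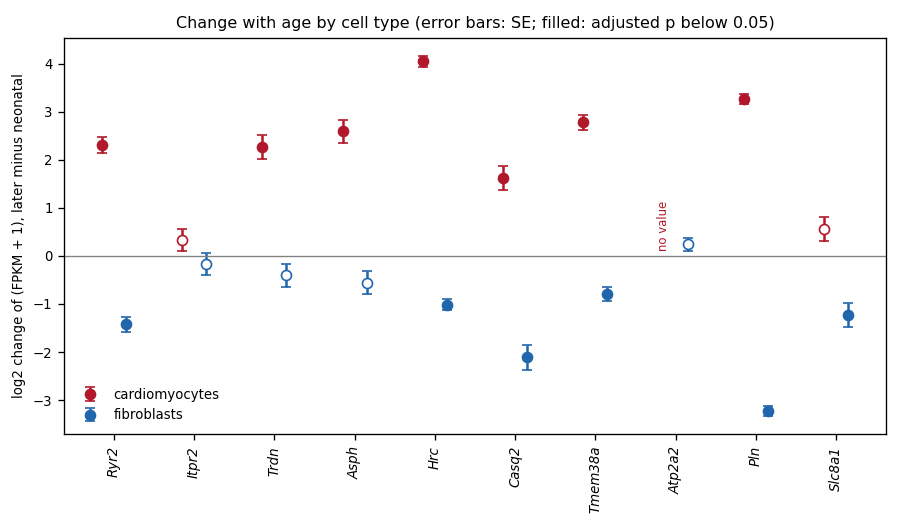
Log2 change of FPKM + 1 from neonatal to later libraries (vertical axis) for the 10 genes in cardiomyocytes (red) and cardiac fibroblasts (blue), with SE bars from limma; filled points passed an adjusted p of 0.05. The red points run from 0.32 for Itpr2 to 4.05 for Hrc, and the blue points from -3.23 for Pln to 0.24 for Atp2a2.

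Ryr2 (chromosome 13, 11645370 to 12199212 in mm9) encodes the ryanodine receptor of heart muscle. Its level was 33.7 and 25.1 FPKM in the neonatal cardiomyocyte libraries, 156 at PN30 and 141 at PN67. In fibroblasts it was 2.04 and 1.87 FPKM in the neonatal libraries, 0.107 at PN28 and 0.0926 at PN60. Both later cardiomyocyte libraries lay above both neonatal ones, both later fibroblast libraries lay below theirs, and no library of one cell type overlapped the other. The rise in cardiomyocytes was 5.04-fold, or 2.31 ± 0.16 (SE) on the log2 scale (adjusted p = 2.19e-05 in limma). The fall in fibroblasts was -1.43 ± 0.16 (adjusted p = 0.000533) with a pseudocount of 1, and -3.36 and -0.45 with pseudocounts of 0.1 and 5. Nearly all of the sum came from the full-length transcript Ryr2-201 of 16813 nucleotides.

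Itpr2 (chromosome 6, 146056821 to 146450745) encodes an inositol trisphosphate receptor, a release channel that is opened by a hormone-driven messenger instead of by calcium entry. It stood at 3.16 and 3.13 FPKM in neonatal cardiomyocytes, 3.88 at PN30 and 4.53 at PN67. In fibroblasts it stood at 3.76 and 4.69 FPKM in neonatal libraries, 2.68 at PN28 and 4.88 at PN60. The later cardiomyocyte libraries lay slightly above the neonatal ones, while in fibroblasts the groups overlapped, as did the 2 cell types. Neither the change in cardiomyocytes (0.32 ± 0.23, adjusted p = 0.236) nor that in fibroblasts (-0.16 ± 0.23, adjusted p = 0.600) passed. Without the PN60 fibroblast library the fibroblast change was -0.50 (adjusted p = 0.0357) and the difference of the changes 0.82 (adjusted p = 0.0106), where it had been 0.48 ± 0.32 (adjusted p = 0.225). That difference also passed when each later age had its own term (0.48, adjusted p = 0.0450). Itpr2 was also the only one of the 10 genes that was not called between neonatal cardiomyocytes and neonatal fibroblasts (-0.33 ± 0.23, adjusted p = 0.283), where the other 9 were higher in cardiomyocytes against 21.6% of all genes.

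**Figure D2:**
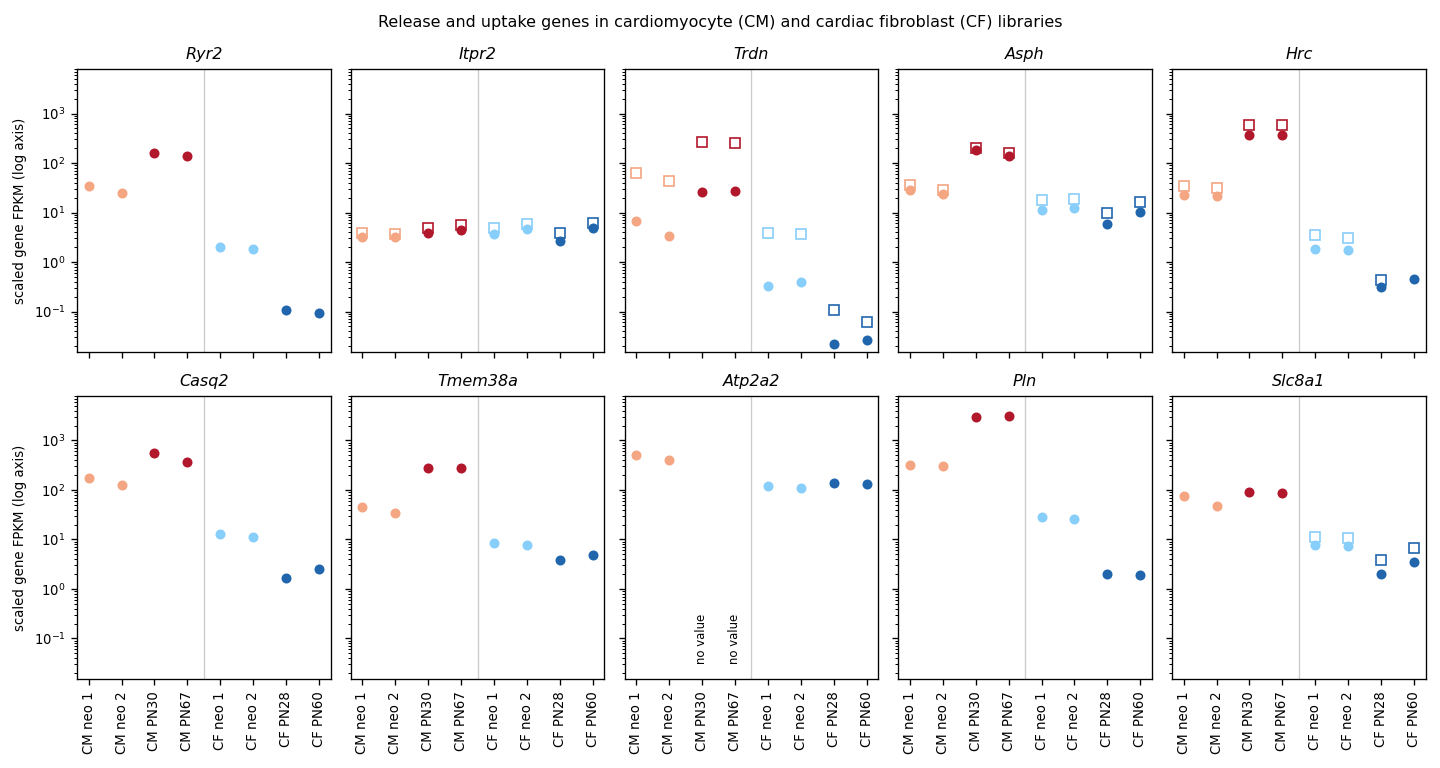
Scaled gene FPKM (log axis) of the 10 genes in each of the 4 cardiomyocyte (CM, reds) and 4 cardiac fibroblast (CF, blues) libraries; circles are sums over named transcripts, and open squares, drawn where they differ by more than 1.1-fold, add unnamed transcripts of the same locus. Pln reaches 3074 FPKM at PN67 in cardiomyocytes, Itpr2 stays between 2.68 and 4.88 FPKM in all 8 libraries, and Trdn is raised most by the unnamed transcripts.

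Triadin, junctin and the histidine-rich calcium binding protein tie the store to the release channel. Hrc (chromosome 7, 52590660 to 52594343), the histidine-rich protein inside the reticulum, had the largest rise of the 9 genes with values. Its level was 22.1 and 21.3 FPKM in neonatal cardiomyocytes, 376 at PN30 and 373 at PN67. In fibroblasts it was 1.80 and 1.77 FPKM in neonatal libraries, 0.311 at PN28 and 0.447 at PN60. Later and neonatal libraries were far apart in both cell types, in opposite directions. The rise in cardiomyocytes was 17.3-fold (log2 change 4.05 ± 0.12, adjusted p = 1.84e-06) and the fibroblast change -1.01 ± 0.12 (adjusted p = 0.000585). The fibroblast change depended on the pseudocount, with -1.99 at 0.1 and -0.33 at 5, and was -1.56 with 2 unnamed transcripts of the locus added.

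Trdn (chromosome 10, 32803289 to 33196515) encodes triadin, which anchors the calcium store to the ryanodine receptor. Its only named transcript, Trdn-201 of 4514 nucleotides, stood at 6.78 and 3.39 FPKM in neonatal cardiomyocytes, 26.4 at PN30 and 27.6 at PN67. In fibroblasts the same transcript stood at 0.324 and 0.393 FPKM, then 0.0217 and 0.0266. With 2 shorter unnamed transcripts that begin at the same position, the level was 61.6 and 42.7 FPKM in neonatal cardiomyocytes, 270.2 at PN30 and 259 at PN67. By this sum it was 3.78 and 3.67 FPKM in neonatal fibroblasts and 0.108 and 0.0622 in later ones. The later cardiomyocyte libraries lay above the neonatal ones on both sums, and the fibroblast libraries below. The log2 change in cardiomyocytes was 2.26 ± 0.25 (adjusted p = 0.000142), and 2.35 with the unnamed transcripts. In fibroblasts the named transcript alone did not pass (-0.41 ± 0.25, adjusted p = 0.222), and with the unnamed ones, or with a pseudocount of 0.1, the change was -2.12 (adjusted p = 0.000132) and -1.88 (adjusted p = 0.00295). The difference of the changes was 2.67 ± 0.35, or 4.47 with the unnamed transcripts.

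Asph (chromosome 4, 9375216 to 9596491) encodes junctin and, from other transcripts of the same gene, the enzyme aspartate beta-hydroxylase, which is made in many cell types. Its sum was 28.8 and 23.3 FPKM in neonatal cardiomyocytes, 184 at PN30 and 141 at PN67. In fibroblasts it was 11.4 and 12.5 FPKM in neonatal libraries, 5.94 at PN28 and 10.2 at PN60. The later cardiomyocyte libraries lay above all others, and the later fibroblast libraries lay a little below the neonatal ones. The cardiomyocyte change was 2.59 ± 0.24 (adjusted p = 7.32e-05), a 6.25-fold rise. The fibroblast change did not pass (-0.56 ± 0.24, adjusted p = 0.105), but it did without the PN60 library (-0.90, adjusted p = 0.00845), with FPKM as deposited (-0.86), with mitochondrial genes removed (-0.87) and when each later age had a term of its own (-0.56, adjusted p = 0.00982). Between neonatal cells the difference was 1.05 ± 0.24 toward cardiomyocytes (adjusted p = 0.0115). It was lost without the first neonatal fibroblast library (1.00, adjusted p = 0.0699) or the first neonatal cardiomyocyte library (0.91, adjusted p = 0.0884).

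Casq2 (chromosome 3, 101890338 to 101950437) encodes cardiac calsequestrin, the main calcium-binding protein inside the store. Its level was 175 and 123 FPKM in neonatal cardiomyocytes, 551 at PN30 and 371 at PN67. In fibroblasts it was 13.1 and 11.4 FPKM, then 1.64 at PN28 and 2.56 at PN60. The groups did not overlap in either cell type, and the PN30 library was the highest. Casq2 rose 3.10-fold in cardiomyocytes (log2 change 1.62 ± 0.25, adjusted p = 0.000884), the smallest of the 7 rises, and fell by 2.11 ± 0.25 in fibroblasts on the log2 scale (adjusted p = 0.000703; -1.28 with a pseudocount of 5). Tmem38a (chromosome 8, 75096002 to 75111181) encodes a potassium channel of the reticulum, TRIC-A, whose current balances the charge of the released calcium. Its level was 44.2 and 34.7 FPKM in neonatal cardiomyocytes, 272 at PN30 and 277 at PN67, with a log2 change of 2.78 ± 0.15 (adjusted p = 9.87e-06). In fibroblasts it was 8.64 and 7.90 FPKM, then 3.92 at PN28 and 4.81 at PN60 (-0.79 ± 0.15, adjusted p = 0.00555; -0.50 with a pseudocount of 5). The later cardiomyocyte libraries were close to each other and well above the neonatal ones.

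The pump and its inhibitor are encoded by Atp2a2 (chromosome 5, 122903531 to 122952183), for SERCA2, and Pln (chromosome 10, 53057492 to 53065805), for phospholamban. Atp2a2 stood at 501 and 405 FPKM in neonatal cardiomyocytes, the highest level of the 10 genes there. In fibroblasts it stood at 120.4 and 109 FPKM in neonatal libraries, 139 at PN28 and 132 at PN60. The later fibroblast libraries lay slightly above the neonatal ones, and the change did not pass (0.24 ± 0.14, adjusted p = 0.211). Neonatal cardiomyocytes exceeded neonatal fibroblasts by a log2 difference of 1.97 ± 0.14 (adjusted p = 0.000112). Only 1 transcript of Atp2a2 is listed, so the muscle and housekeeping forms of the pump could not be separated.

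Pln stood at 319 and 304 FPKM in neonatal cardiomyocytes, 2949 at PN30 and 3074 at PN67. In fibroblasts it stood at 28.5 and 25.8 FPKM in neonatal libraries, then 2.04 at PN28 and 1.96 at PN60. Neonatal and later libraries were widely separated in both cell types, and their order was opposite. The rise in cardiomyocytes was 9.65-fold (3.27 ± 0.10, adjusted p = 2.24e-06) and the fall in fibroblasts 13.6-fold (-3.23 ± 0.10, adjusted p = 5.26e-06), so Pln had the largest difference of the changes among the 9 genes tested (6.50 ± 0.15, adjusted p = 3.50e-06). Relative to Atp2a2, Pln was at 0.637 and 0.751 FPKM per FPKM in neonatal cardiomyocytes, 0.237 in both neonatal fibroblast libraries, and 0.0147 and 0.0148 in later fibroblasts. In E17, PN1 and PN10 ventricles this ratio was 3.12, 3.30 and 2.26. These ratios were not tested.

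Slc8a1 (chromosome 17, 81785359 to 82048947) encodes the sodium-calcium exchanger NCX1 of the plasma membrane. Its level was 74.8 and 47.5 FPKM in neonatal cardiomyocytes, 89.6 at PN30 and 86.6 at PN67. In fibroblasts it was 7.66 and 7.42 FPKM in neonatal libraries, 1.97 at PN28 and 3.47 at PN60. The later cardiomyocyte libraries lay above the neonatal ones, which differed more from each other than the later ones did. The cardiomyocyte change of 0.56 ± 0.25 did not pass (adjusted p = 0.0841). It passed without the first neonatal cardiomyocyte library (0.88, adjusted p = 0.0271), without the PN28 or the PN60 fibroblast library (0.56 in both, adjusted p = 0.0360 and 0.0361), with a pseudocount of 5 (0.52, adjusted p = 0.0493) and with a term for each later age (0.56, adjusted p = 0.0414). The fall in fibroblasts was -1.23 ± 0.25 (adjusted p = 0.00709; -0.71 with a pseudocount of 5), and the difference of the changes 1.78 ± 0.35 (adjusted p = 0.00402). As a ratio of means the fibroblast fall was 2.77-fold by named transcripts and 2.08-fold with unnamed ones added.

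Fibroblast libraries held most of these genes at a low level relative to cardiomyocytes. Pln, Ryr2, Trdn and Hrc lay near the markers of cardiomyocytes at both stages, and the other genes with later values did not. In neonatal fibroblasts the 10 genes stood at a median of 10.5% of their mean in neonatal cardiomyocytes, while 7 cardiomyocyte markers stood at a median of 9.64%, from 7.42% to 10.4%. Ryr2 (6.65%) and Trdn (7.05%) lay just below the range of the markers, and Hrc (8.20%), Casq2 (8.24%) and Pln (8.72%) within it. Slc8a1 (12.3%), Tmem38a (20.95%), Atp2a2 (25.3%), Asph (45.9%) and Itpr2 (134%) lay above the range of the markers. In later fibroblasts 6 markers had fallen to between 0.0328% and 0.0800% of the level in later cardiomyocytes. Pln (0.0664%) and Ryr2 (0.0672%) lay within that range and Trdn (0.0893%) and Hrc (0.101%) just above it. Casq2 (0.455%), Tmem38a (1.59%), Slc8a1 (3.09%), Asph (4.95%) and Itpr2 (90.0%) were higher. All these percentages use named transcripts, and the later Trdn value rests on a fibroblast mean of 0.0241 FPKM. With unnamed transcripts added, mean Trdn was 0.0850 FPKM in later fibroblasts and 264 in later cardiomyocytes. Mean Hrc was then 0.455 and 580 FPKM, so for both genes the place relative to the markers depends on the transcripts counted. The part of cardiomyocyte RNA in the neonatal fibroblast values was not tested. Macrophage markers, 6 of 6 with values, summed to 106 to 204 FPKM in neonatal and 839 to 1032 in later fibroblasts.

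**Figure D3:**
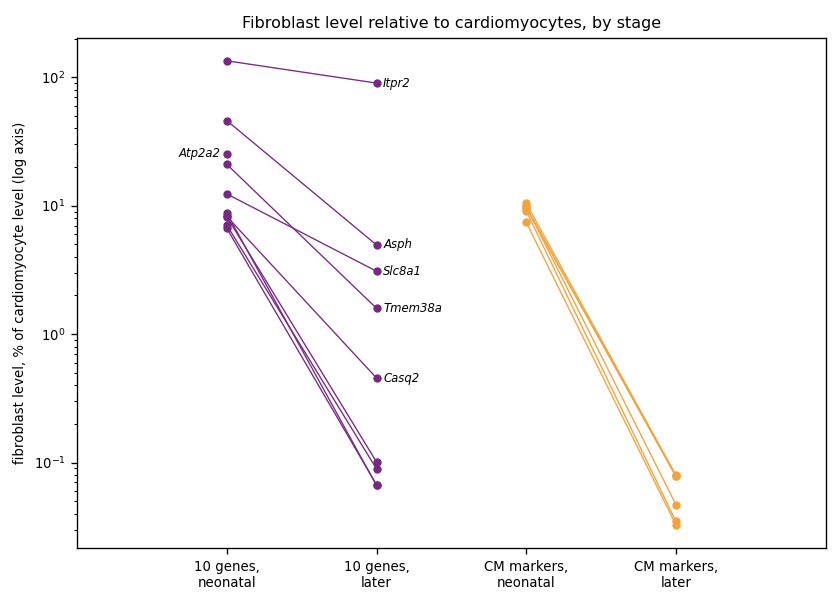
Mean FPKM in fibroblasts as a percentage of the mean in cardiomyocytes (log axis) at the neonatal and the later stage, for the 10 calcium genes (purple) and 7 cardiomyocyte markers (orange, 6 with a later value); lines join the stages of a gene. The markers fall from 7.42% to 10.4% to below 0.0800%, while Itpr2, Asph, Slc8a1, Tmem38a and Casq2 remain above 0.4%. All levels are sums over named transcripts.

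Ventricles gave a second view, with 1 library per stage and therefore only a trend over the order of the 5 stages. Of the 8 genes with a fitted trend, 5 rose and 0 fell, against 19.0% of all genes that rose and 16.1% that fell. Of 5 cardiomyocyte markers with a fitted trend, 2 rose and 0 fell. The median slope of the 8 was 0.42 log2 units per stage, against 0.00 over 11658 genes. Of 6 macrophage markers 5 were tested and all 5 rose, with a median slope of 0.44. Over the 5 ventricle libraries the macrophage markers summed to 23.6 to 154 FPKM, the 4 atrial ones to 137 to 2905 and 4 erythroid ones to 179.8 to 5005, and their part in the slopes was not tested. Hrc was at 23.9, 57.4, 135, 332 and 372 FPKM from E17 to PN90, and it increased at every step (slope 1.03 ± 0.10, SE, adjusted p = 0.00463). Tmem38a increased at every step as well, with 30.7, 53.7, 80.4, 131 and 139 FPKM (0.56 ± 0.07, adjusted p = 0.00494). Ryr2 was at 43.9, 100.2, 205, 226 and 186 FPKM, so most of its increase lay before PN10 and the last stage was lower than the one before. Its slope of 0.53 ± 0.14 (adjusted p = 0.0325) was lost without the E17 (0.28, adjusted p = 0.255), PN1 (0.55, adjusted p = 0.0753) or PN28 library (0.49, adjusted p = 0.0893), without a filter on low values (0.53, adjusted p = 0.0956) and with mitochondrial genes removed (0.44, adjusted p = 0.0696). Without PN90 it was 0.80 (adjusted p = 0.0141).

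Trdn-201 was at 18.3, 13.3, 30.2, 53.2 and 80.3 FPKM in ventricles, lowest at PN1, and the sum with the unnamed transcripts rose at every step through 144, 269.6, 398, 505 and 558. The slope was 0.61 ± 0.11 (adjusted p = 0.00977), or 0.48 with the unnamed transcripts, and 0.56 (adjusted p = 0.0569) without PN90. Asph was at 70.2, 91.0, 113, 144 and 165 FPKM, with a slope of 0.31 ± 0.05 (adjusted p = 0.00668) that was 0.29 (adjusted p = 0.0611) without E17 and 0.20 with FPKM as deposited. The Asph sum with unnamed transcripts went through 98.7, 135, 213, 282 and 289 FPKM. Without E17, 3 genes were called. Over all genes, leaving out 1 stage gave 617 to 2491 rising slopes, where the full fit gave 2215. Casq2 was at 789.8 and 783 FPKM at E17 and PN1, then 909, 1059 and 968, and did not pass (0.10 ± 0.07, adjusted p = 0.281). Between 63.7% and 69.6% of that sum came from Casq2-203, a 567-nucleotide retained-intron transcript that stood at 0.516 FPKM or less in the cell libraries. The coding transcript Casq2-201 alone was at 228, 253, 275, 355 and 322 FPKM. Slc8a1 was at 238, 171, 97.4, 114 and 145 FPKM, lowest at PN10 (-0.20 ± 0.11, adjusted p = 0.201). With its unnamed transcripts it was at 433, 402, 281, 253 and 398 FPKM, lowest at PN28 (-0.09, adjusted p = 0.499). Itpr2 lay between 14.1 and 19.4 FPKM (-0.02 ± 0.06, adjusted p = 0.782), of which transcripts annotated as protein-coding held 5.21 to 6.07 FPKM. Atp2a2 was at 335, 769 and 1455 FPKM and Pln at 1046, 2534 and 3284 from E17 to PN10, and neither was fitted because PN28 and PN90 had no value.

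**Figure D4:**
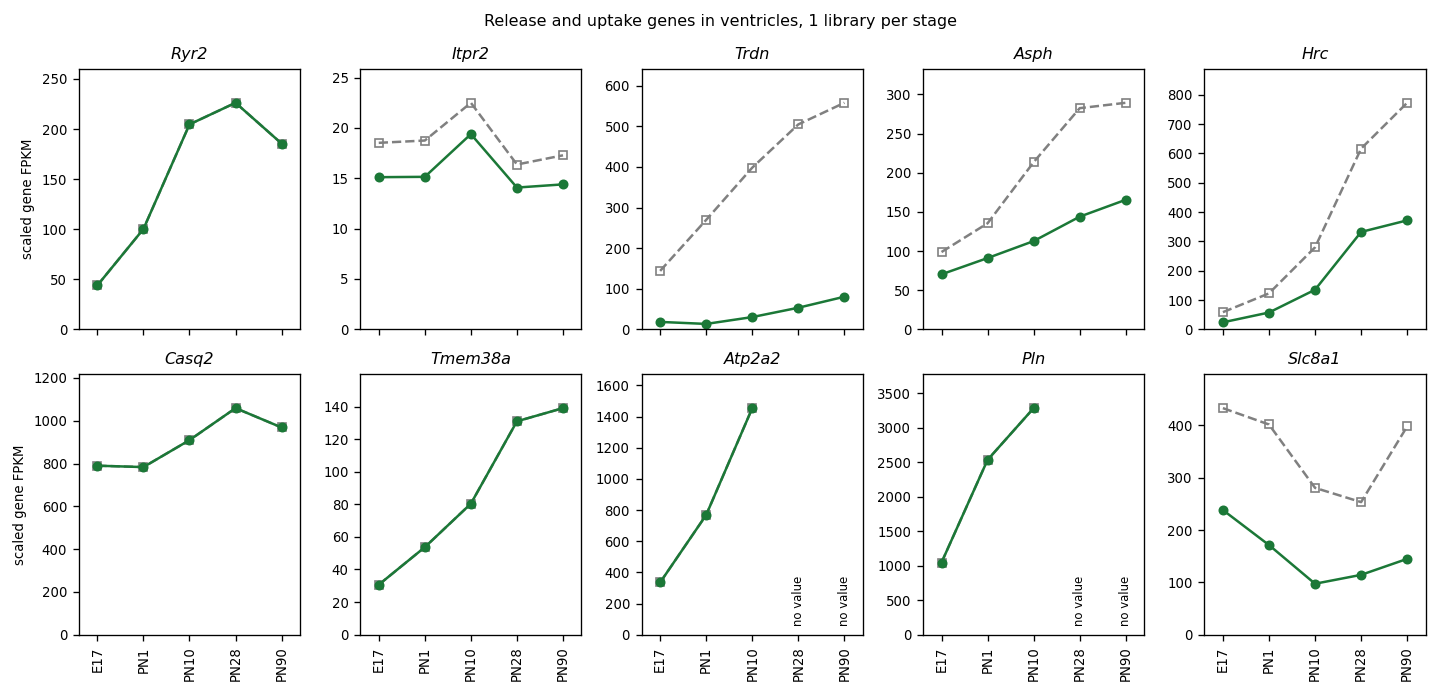
Scaled gene FPKM of the 10 genes in ventricles at E17, PN1, PN10, PN28 and PN90 (1 library per stage, each panel with its own axis from 0); green circles are sums over named transcripts and grey squares add unnamed transcripts of the same locus. Hrc and Tmem38a increase at every step, Slc8a1 is lowest at PN10 by named transcripts, and Atp2a2 and Pln have no value at PN28 and PN90.

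The unnamed transcripts are deposited ones whose identifiers have no match in GENCODE M21 and that lie wholly within 1 gene, and adding them was decided after the values were seen. They made up 89.0% to 92.1% of Trdn in cardiomyocytes and 85.6% to 95.1% in ventricles. For Hrc they made up 31.1% to 36.8% in cardiomyocytes and 46.1% to 59.2% in ventricles. For Slc8a1 they made up 1.14% to 6.11% in cardiomyocytes but 30.5% to 48.1% in fibroblasts and 45.0% to 65.3% in ventricles. For Asph they made up 9.41% to 18.7% in cardiomyocytes, 32.3% to 39.9% in fibroblasts and 28.8% to 49.1% in ventricles. For Itpr2 these ranges were 14.0% to 18.6%, 19.8% to 28.9% and 13.8% to 19.2%. Atp2a2, Pln, Ryr2 and Tmem38a had none. Strand is not given for these transcripts, and Cufflinks divides fragments between overlapping transcripts by an estimate.

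In cardiomyocytes the use of transcripts changed with age in Asph. Its transcript Asph-206 (1762 nucleotides, chromosome 4, 9548056 to 9570864) held 17.0% and 19.8% of the named sum in neonatal cardiomyocytes, 71.7% at PN30 and 65.8% at PN67. In fibroblasts it held at most 1.51%. The later cardiomyocyte libraries were thus far above all other cell libraries. The share rose by 50.4 percentage points with age (log2 odds difference 3.18 ± 0.32, limma adjusted p = 0.000387), and 18.0% of all isoforms tested were called in this comparison. Asph-208 fell by 18.3 points (adjusted p = 0.0014) and Asph-201 by 11.6 points (adjusted p = 0.00142), the latter by 9.08 points, under the limit of 10, once unnamed transcripts were added. In FPKM, Asph-206 went from 4.89 and 4.61 to 132 and 92.9, while Asph-208 went from 7.24 and 5.43 to 9.66 and 9.46. In ventricles Asph-206 was at 0.783, 10.7, 51.4, 66.5 and 79.6 FPKM from E17 to PN90, and an unnamed transcript of 1687 nucleotides over the same stretch was at 4.80, 17.7, 81.3, 116 and 97.4. Both were lowest at E17. The sources used here do not say which of these transcripts encodes junctin.

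For Trdn, an unnamed transcript of 1058 nucleotides (chromosome 10, 32803289 to 32917024) that begins where Trdn-201 begins and ends well before it was the leading form. It held 69.8% and 77.3% of the sum in neonatal cardiomyocytes, 77.7% at PN30 and 77.6% at PN67. In ventricles it held 64.3% at E17 and 80.4% to 87.0% at the later stages. Its level was 43.0 and 33.0 FPKM in neonatal and 209.9 and 201 in later cardiomyocytes, so the long and the short form rose together and their shares hardly moved. Shares in later fibroblasts rest on about 0.1 FPKM and are not described. For Slc8a1, Slc8a1-201 (2913 nucleotides) held 91.5% and 92.0% of the named sum in neonatal cardiomyocytes, 94.1% at PN30 and 95.4% at PN67. In neonatal fibroblasts it held 91.9% and 89.3%, but 15.8% at PN28 and 10.1% at PN60, where Slc8a1-202 held 84.2% and 85.0% of a sum of only 1.97 and 3.47 FPKM. With unnamed transcripts counted, Slc8a1-202 held 43.8% and 44.1% there. Averaged over both stages, the Slc8a1-201 share of the named sum was 41.5 points higher in cardiomyocytes (limma adjusted p = 8.92e-06). In that comparison 17.1% of all isoforms were called. This average came from the later stage with its low fibroblast sums, as the neonatal shares of the named sum overlapped. With unnamed transcripts counted, the neonatal shares were 88.0% and 86.4% in cardiomyocytes and 63.85% and 61.8% in fibroblasts. In ventricles Slc8a1-203 led the named forms, with 80.3% to 86.7% of the named sum, and Slc8a1-201 held 11.3% to 17.4%. With unnamed transcripts counted, Slc8a1-203 held 45.0% at E17 and 29.2% to 36.6% at the later stages. An unnamed transcript of 1995 nucleotides then held 34.9% at E17 and led at the later stages with 48.5% to 59.6%.

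**Figure D5:**
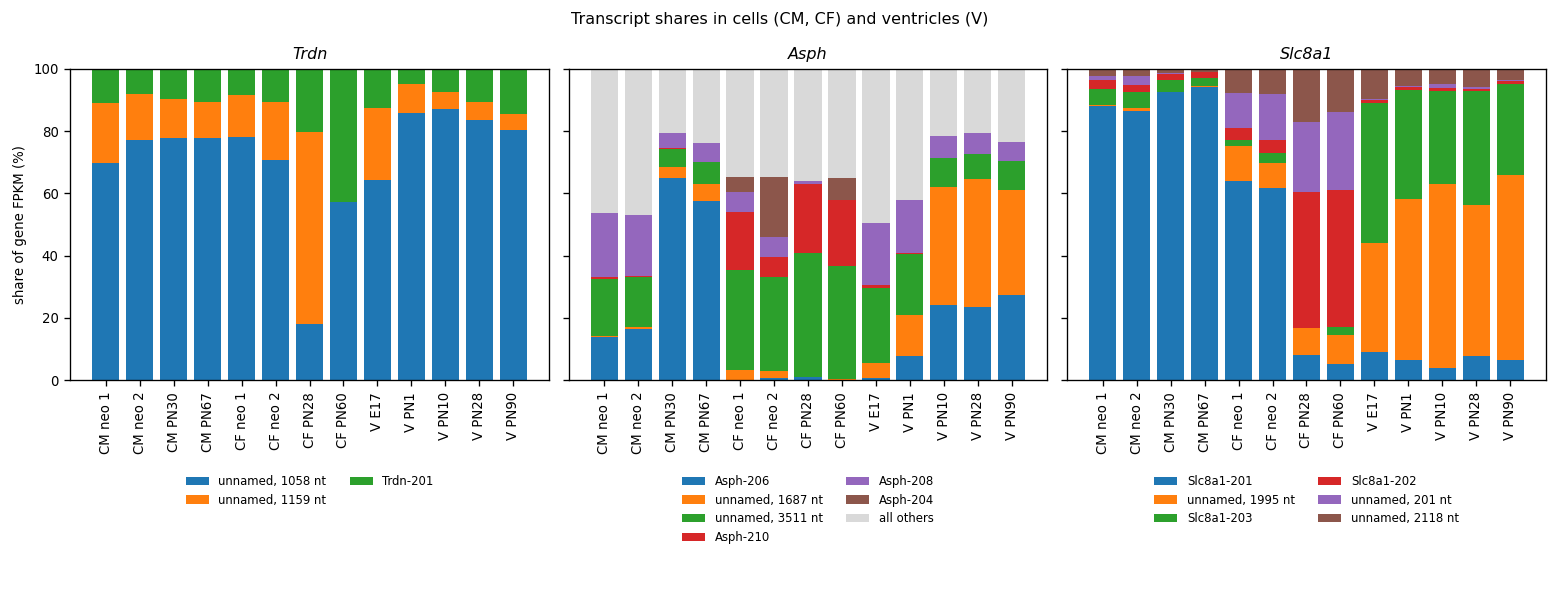
Share of gene FPKM (percent, bars add to 100) held by the transcripts of Trdn, Asph and Slc8a1 in each cardiomyocyte (CM), fibroblast (CF) and ventricle (V) library, named and unnamed transcripts together; the 6 with the highest share in any library have their own colour. Asph-206 leads only in PN30 and PN67 cardiomyocytes among the cell libraries, and Slc8a1-201 leads in cardiomyocytes but not in ventricles or later fibroblasts.

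Other genes of the calcium pathway changed in both directions in cardiomyocytes. Of 40 listed genes, 31 were tested, and 10 rose and 10 fell (median log2 change 0.01), which is near the 36.8% up and 30.4% down of all genes. The counts of the single lists rest on 4 to 10 tested genes each and are read against the same shares. Among partners of the release channel and builders of its junction, 5 of 10 rose and 4 fell. S100a1, a calcium sensor that binds the channel, went from 146 and 135 to 895 and 1076 FPKM (2.80 ± 0.19, adjusted p = 1.81e-05). Jph2 and Jph1 encode junctophilins, which hold the reticulum close to the plasma membrane. They rose by 2.51 ± 0.20 (adjusted p = 3.70e-05) and 1.55 ± 0.19 (adjusted p = 0.000275). Among pump regulators, 2 of 4 fell and 0 rose. Sln, for the pump inhibitor sarcolipin and also one of the atrial markers, fell from 219 and 72.7 to 5.74 and 14.1 FPKM (-3.66 ± 0.65, adjusted p = 0.00167), and Ppp1r1a, for an inhibitor of protein phosphatase, fell by 1.45 ± 0.23 on the log2 scale (adjusted p = 0.000896). The inhibitors Pln and Sln went in opposite directions. All 4 atrial markers, Sln among them, fell (median log2 change -4.08), and the part of atrial RNA in the Sln change was not tested.

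Among calcium-binding proteins of the store outside the 10, 1 of 5 rose and 0 fell. This was Srl, for sarcalumenin, which went from 178 and 122 to 506 and 396 FPKM (1.60 ± 0.20, adjusted p = 0.000285). Of 8 genes for calcium entry and exit at the plasma membrane, 3 rose and 3 fell. The 3 rises were subunits of the L-type calcium channel, Cacna2d1 (2.23 ± 0.16, adjusted p = 2.38e-05), Cacna1c, the pore (1.97 ± 0.15, adjusted p = 3.12e-05), and Cacnb2 (1.61 ± 0.16, adjusted p = 0.000103). Paralogs of the 10 genes were mostly low. Itpr1, the sister of Itpr2, fell from 8.17 and 9.01 to 4.13 and 4.50 FPKM in cardiomyocytes (-0.85 ± 0.13, adjusted p = 0.000816). Tmem38b, for TRIC-B, rose from 3.69 and 3.73 to 12.2 and 18.6 FPKM (1.77 ± 0.21, adjusted p = 0.000207). Itpr3 (-0.36 ± 0.18, adjusted p = 0.117) and Atp2a3 (0.14 ± 0.26, adjusted p = 0.650) did not pass. Ryr3 (at most 1.73 FPKM in cells) and Casq1 (at most 1.40 in cells, 4.46 to 50.3 in ventricles) and Slc8a2 (at most 1.10) had means under 1 FPKM in the cell libraries and were not tested there.

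The genes whose pattern was most like that of Pln, by the root mean square difference of centred log2 values over its 11 libraries with values, were Cox8b (0.25), Cox6a2 (0.28), Tnni3 (0.41), Cox7a1 (0.43) and Eno3 (0.44), of 10816 genes compared. Cox8b, a muscle subunit of cytochrome oxidase, stood at 378 and 382 FPKM in neonatal and 2541 and 2522 in later cardiomyocytes. In fibroblasts it went from 38.2 and 32.1 to 2.65 and 3.60 FPKM, so among the cell libraries it was high and low where Pln was. In E17, PN1 and PN10 ventricles Cox8b stood at 123, 345 and 453 FPKM, below later cardiomyocytes, whereas Pln reached 3284 FPKM there. Values were centred within cells and within ventricles, so the likeness does not cover the difference between these sets. Those most like Itpr2 over 13 libraries were Sumf1 (0.10), Vps13b (0.11), Ctbs (0.13), Ndrg3 (0.14) and Mettl14 (0.14), of 10814 genes. Sumf1 stood between 8.11 and 11.7 FPKM in the 8 cell libraries. These are descriptions of likeness across the libraries, which share the differences of cell type, age and kit.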

How the data were processed

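The authors deposited FPKM per transcript, with a coverage value and a status, in the isoform format of Cufflinks, per the file headers. Per the submitters' processing notes, the tools were TopHat2 2.0.5 and Cufflinks 2.1.1 and the build mm9. No source used here gives the annotation release. Coverage, a signal value in the deposited tables, was used only for depth. Of 94696 transcripts, 82379 (87.0%) were matched by identifier to GENCODE M21, for names only, and coordinates are the deposited mm9 ones, counted from 1. Matched transcripts of at least 200 nucleotides were summed per gene. A gene had no value in a library where one of its transcripts had the status HIDATA or FAIL, and any transcript listed as LOWDATA in 1 or more libraries of its set was dropped. Libraries were scaled by the median of ratios, within cells and within ventricles.

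Tests used limma 3.58.1 (R 4.3.3), two-sided and with a mean-variance trend, on log2(FPKM + 1) of genes averaging 1 FPKM or more. P-values were adjusted over all genes by Benjamini-Hochberg, with calls below 0.05. This scale understates the fold changes of low genes. Ratios and folds of means are of scaled FPKM. The cell fit had 4 classes with 4 residual degrees of freedom, and the 2 later ages of a cell type formed 1 class. The ventricle fit was a slope on stages 1 to 5 with 3 residual degrees of freedom, for genes with values in at least 4 libraries. Isoforms with a share of 5% to 95% in genes of at least 5 FPKM were tested on log2 odds with 0.5 added, and called with a change of at least 10 points. The scripts were tested on simulated data. The 10 genes, the pathway and marker lists and the tests were chosen with earlier results of these data known. Named were all 10 genes, paralogs with at least 1 FPKM in any library, up to 3 called genes per pathway list by size of the cardiomyocyte change, and the 5 genes most like Pln and Itpr2. Alternatives covered pseudocounts, filters, scalings, trend, transcript choice, status rules, classes and each library left out.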

Additional observations from a re-analysis of the deposited data

Results flagged for a closer look

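For 8 genes the change with age differed between cardiomyocytes and fibroblasts by an interaction test in limma. The difference of the log2 changes, cardiomyocytes minus fibroblasts, was 6.50 for Pln, 5.06 for Hrc, 3.73 for Ryr2, 3.73 for Casq2, 3.57 for Tmem38a, 3.15 for Asph, 2.67 for Trdn and 1.78 for Slc8a1. For Ryr2 it was 5.71 with a pseudocount of 0.1, and for Trdn 4.47 with unnamed transcripts added. The adjusted p was at most 0.00402, and 32.2% of all genes tested were called in this direction. So were 6 of the 6 cardiomyocyte markers tested. No group had 4 or more libraries, so no library was checked as an outlier within its group.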

How the results depend on the processing

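In cardiomyocytes 7 or 8 of the 9 genes with values were called higher under every alternative, where 3008 to 5382 of all genes were. The difference of the changes was called toward cardiomyocytes for 8 or 9 of these 9, where 3011 to 4721 of all genes were. Counts over all genes moved more. In fibroblasts they were 1480 up and 4660 down without rescaling, 1488 and 4710 with mitochondrial genes removed, and 1385 to 3089 up and 1376 to 3240 down with 1 library left out. Between neonatal cells, leaving out 1 library gave 1550 to 3340 genes higher and 1116 to 3244 lower in cardiomyocytes. Ventricle slopes were called up for 1270 and down for 3446 genes without rescaling, and for 1266 and 2890 with mitochondrial genes removed. With 1 stage left out they were called up for 617 to 2491 and down for 511 to 2125 genes. Of the 8 calcium genes with a fitted trend, 3 to 5 were then called up. With no minimum share change, 4649 isoforms were called with age in cardiomyocytes and 5756 between cell types. The causes were not tested. No paired analysis was possible because the labels give no replicate numbers that link cardiomyocyte and fibroblast libraries. No age after the neonatal stage and no ventricle stage had a replicate, and fragment totals are unknown, so levels below 1 FPKM, as in later fibroblasts, are imprecise.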
